A study of Rattus norvegicus with 50 samples.

Results

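In the kidney cortex of obese ZSF1 rats, 78 Ensembl gene IDs had higher values in every library of rats given the high dose of MK-8722 than in every library of the other obese groups. They were chosen by that separation: the lowest FPKM of the 5 libraries at MK-8722 10 mpk exceeded the highest FPKM of the 15 other obese cortex libraries. FPKM is the number of sequenced fragments from a gene, corrected for transcript length and for the library's mapped fragments. A mean of at least 1 FPKM at 10 mpk was also required, and 3 further IDs that met these conditions were left out by the selection, so that 78 of 81 were kept. The table held 32545 IDs, of which 12804 had such a mean, and the 78 were 0.609% of the 12801 that remained after the 3 were set aside. Because cortex values chose them, cortex levels against the other obese groups are given as a description with no test, and the tests below use medulla.

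MK-8722 is a small molecule that directly activates AMP-activated protein kinase (AMPK) complexes of all compositions. AMPK is an energy sensor: when cellular ATP runs low, it slows pathways that consume ATP, such as fatty acid synthesis, and favours pathways that supply it, such as fatty acid oxidation. In kidney its substrates include enzymes of lipid metabolism and regulators of transport in the tubule. The obese ZSF1 rat is obese and diabetic and develops progressive kidney disease. Enalapril blocks angiotensin-converting enzyme, is a standard drug for diabetic kidney disease and served as the comparator.

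The study asked how activating AMPK changes the kidney in this model, and profiled cortex and medulla by stranded total RNA sequencing after ribosomal RNA removal. In each of the 2 tissues, obese ZSF1 rats received MK-8722 at 10 mpk, MK-8722 at 1 mpk, enalapril (spelled Enalpril in the labels) at 10 mpk or vehicle, and lean ZSF1 rats received vehicle; each of these 10 groups had 5 libraries, 50 in all. The dose unit mpk is that of the labels. Every group is labelled as treated for 28 weeks and as 20 weeks old, and 20 weeks cannot be the age at the end of such a treatment. The labels do not tie libraries to animals: p-values measure the spread between libraries, and the cortex and medulla libraries may come from the same rats. The files pair IDs with no gene names, so the 78 are described by ID, no role is given to any of them, and the labelled tissue could not be checked against marker genes. In whole tissue, fewer cells of a type and less RNA per cell cannot be told apart.

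The separation in cortex was mostly moderate in size. The ratio of the mean at 10 mpk to the mean in obese vehicle had a median of 1.79 over the 78 IDs and ranged from 1.19 to 12.9. It was at least 2 for 21 IDs and at least 3 for 7, and it was under 1.5 for 21. Mean levels at 10 mpk ran from 1.26 to 997 FPKM with a median of 10.2 FPKM, beside a median of 7.72 FPKM over all 12804 IDs. By level, 26 IDs averaged under 5 FPKM, 42 averaged 5 to under 50 FPKM and 10 averaged 50 FPKM or more. The coefficient of variation among the 5 libraries at 10 mpk had a median of 15.8% and ranged from 1.52% to 43.8%.

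**Figure D1:**
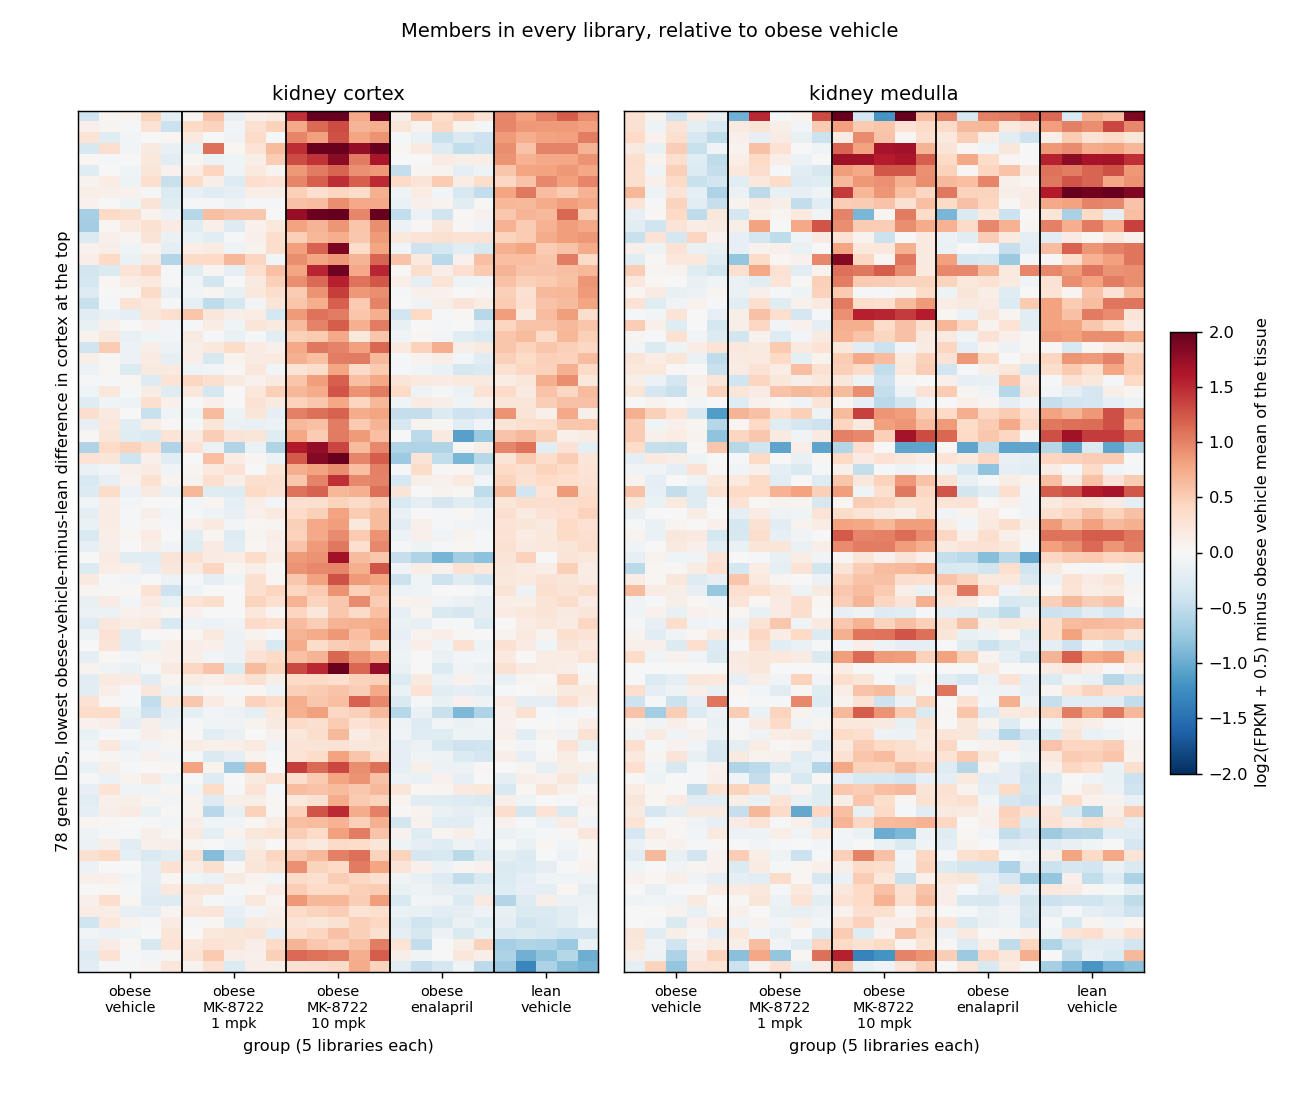
The 78 IDs (rows) in all 50 libraries (columns, by tissue and group), coloured by log2(FPKM + 0.5) minus the mean of the obese vehicle libraries of the same tissue, with colours saturating at 2 and -2. Rows run by the cortex difference of obese vehicle minus lean, most negative at the top. Cortex at 10 mpk is high in every row because the rows were chosen for it, and medulla at 10 mpk and lean medulla are high in many rows near the top.

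ENSRNOG00000020951 had the widest gap between the groups on the scale log2(FPKM + 0.5). In cortex it measured 41.3, 49.5, 54.6, 62.1 and 70.7 FPKM at 10 mpk. It measured 18.1, 18.6, 20.4, 21.4 and 28.2 FPKM at 1 mpk and 19.8, 19.9, 21.4, 21.8 and 22.3 FPKM with enalapril, against 16.9, 19.3, 19.7, 20.5 and 23.1 FPKM with obese vehicle. The groups at 1 mpk, enalapril and vehicle overlapped, and the high dose stood apart, which the selection required. Lean vehicle cortex lay between, with 32.3, 33.7, 34.2, 37.2 and 37.2 FPKM, above all 15 other obese libraries and below all 5 at 10 mpk.

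ENSRNOG00000019404 had the next widest gap and the largest ratio, 12.9, and was a low-level ID. It measured 0.839, 1.01, 1.22, 1.55 and 2.10 FPKM at 10 mpk and 0, 0.299, 0.319, 0.397 and 0.429 FPKM at 1 mpk, against 0.0512, 0.0710, 0.0863, 0.132 and 0.180 FPKM with obese vehicle in cortex. At 1 mpk, 4 of 5 libraries were above every vehicle library and the other one was listed at 0. Lean cortex measured 0.0916, 0.162, 0.166, 0.181 and 0.243 FPKM, overlapping obese vehicle. In medulla this ID was listed at 0 in 4 of 5 libraries at 10 mpk and reached 0.0546 FPKM in the fifth, and it was listed at 0 in all 5 obese vehicle libraries, with no separation between the groups.

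The most abundant of the 78 was ENSRNOG00000032857. In cortex it measured 476, 767, 1201, 1234 and 1308 FPKM at 10 mpk, against 214, 246, 293, 297 and 385 FPKM with obese vehicle. Lean cortex held 497, 543, 551, 564 and 653 FPKM, within the range at 10 mpk. The next most abundant, ENSRNOG00000013768, measured 428, 575, 588, 588 and 813 FPKM at 10 mpk, against 239.9, 263, 312, 315 and 366 FPKM with obese vehicle, and lean cortex with 362 to 405 FPKM fell below all 5 libraries at 10 mpk.

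At the lower dose and with enalapril, both held below the high dose by the selection, these IDs lay near obese vehicle in cortex. Over the 75 members with at least 1 FPKM in 5 or more of the 25 cortex libraries, the median difference in group means of log2(FPKM + 0.5) was 0.73 for 10 mpk minus vehicle, with -0.19 over all 13579 genes that passed this filter. For 1 mpk minus vehicle it was 0.09, with 0.01 over all genes, and for enalapril minus vehicle -0.07, with -0.18 over all genes. The mean at 1 mpk was above the vehicle mean for 60 of 78 IDs, beside 53.3% of the 12804 IDs, and the enalapril mean was below it for 56 of 78, beside 83.5%. The highest of the 15 other libraries was a 1 mpk library for 51 IDs, a vehicle library for 18 and an enalapril library for 9. The lowest of the 5 libraries at 10 mpk was replicate 6 for 32 IDs and replicate 2 for 23.

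At the edge of the selection the groups were close. ENSRNOG00000006631, the closest inside, had a lowest value of 2.016 FPKM at 10 mpk and a highest value of 2.015 FPKM in the other obese libraries. ENSRNOG00000054219 was inside with 0.946 against 0.944 FPKM. Just outside, ENSRNOG00000047218 had 13.36 FPKM against 13.41 FPKM and ENSRNOG00000006570 had 21.84 FPKM against 21.93 FPKM.

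Sample properties moved with the groups. The 6 most abundant IDs of the table held 62.4% ± 3.68 of the summed FPKM in cortex at 10 mpk, 61.2% ± 1.91 with enalapril and 52.6% ± 8.23 with obese vehicle (SD, n = 5 each), and FPKM of all other genes are relative to that sum. Relative depth was read from ratios of low values between libraries. In cortex it averaged 1.30 ± 0.187 at 10 mpk and 0.992 ± 0.206 with vehicle (SD, n = 5 each). Library numbers fell into a lower and a higher range, whose meaning the labels do not give, and 3 of 5 cortex libraries at 10 mpk, against 1 of 5 in each other obese cortex group, were in the higher one. Within the lower range the median difference of the 75 IDs between 10 mpk and the other obese libraries was 0.66 on the log2 scale (2 against 12 libraries), and within the higher range it was 0.69 (3 against 3 libraries). Over all genes these medians were -0.12 and -0.08. The selection itself placed every ID higher at 10 mpk within both ranges, so an effect of the number range was not tested. After median-ratio rescaling, in which each library is divided by the median over genes of its value relative to the geometric mean of all libraries, 158 IDs met the selection, 69 of the 78 among them.

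In lean cortex, most of the 78 were above obese vehicle and below the high dose. The mean of obese vehicle was below the lean mean for 66 of 78 IDs. Over all 12804 IDs with a mean of at least 1 FPKM at 10 mpk, the lean mean exceeded the vehicle mean for 18.4%. The lean mean was below the mean at 10 mpk for 74 of 78. On the log2 scale, the mean at 10 mpk was above the lean mean for 71 of 75 filtered members, beside 68.0% of 13579 genes. The median difference of obese vehicle minus lean was -0.27 for the 75 filtered members and 0.30 over all genes, and that of 10 mpk minus lean was 0.47 for members and 0.13 over all genes. All 5 vehicle values were below all 5 lean values for 27 of 75 members, beside 4.4% of all genes, and above them for 3 members, beside 36.4%. All 5 values at 10 mpk were above all 5 lean values for 43 of 75 members, beside 18.6% of all genes, and below them for 0, beside 7.4%. The vehicle and 10 mpk values took part in choosing the IDs, so nothing is read from these counts.

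**Figure D2:**
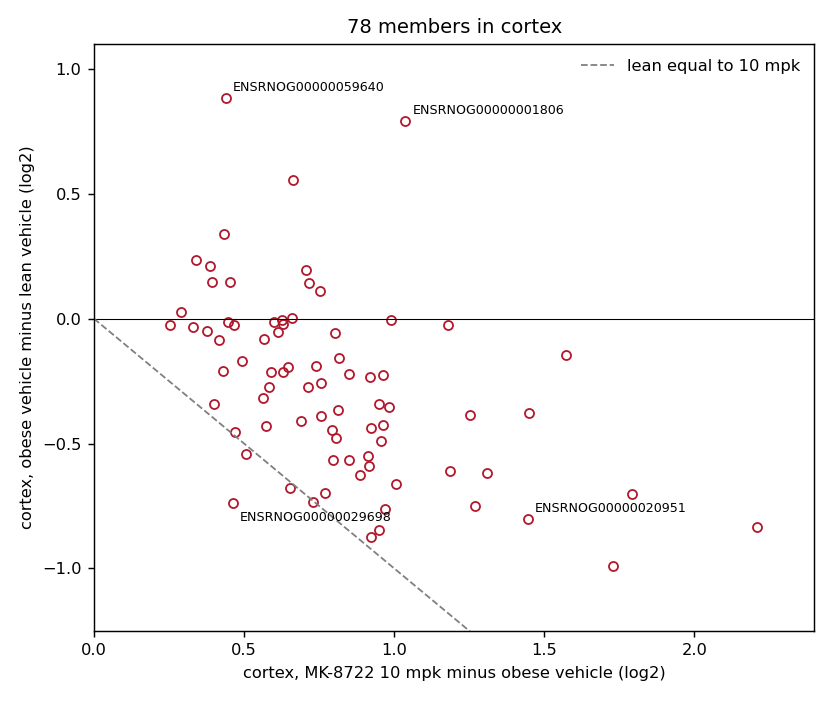
Each circle is 1 of the 78 IDs, placed by the cortex difference in group means of log2(FPKM + 0.5) for MK-8722 10 mpk minus obese vehicle (horizontal) and for obese vehicle minus lean vehicle (vertical). Circles below the horizontal line at 0 are lower with obese vehicle than with lean vehicle, and the 4 below the dashed line are higher in lean than at 10 mpk. Both axes use the obese vehicle libraries, so their slope is not read.

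Placed by their lean cortex mean, the 78 fell into 5 classes. For 28 IDs the lean mean was above every one of the 15 other obese libraries but below the 10 mpk mean, as for ENSRNOG00000020951. For 31 it was above the mean of those 15 libraries and within their range. For 10 it was at or below their mean and within their range, and for 5 it was below every one of them. For 4 it reached or passed the 10 mpk mean.

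ENSRNOG00000029698 was one of those 4, and was chosen after its values were seen. It measured 18.7, 19.3, 20.2, 20.9 and 24.5 FPKM in cortex at 10 mpk, 12.2, 14.6, 15.7, 15.98 and 16.14 FPKM with obese vehicle, and 21.5, 23.1, 24.3, 25.9 and 31.4 FPKM in lean cortex. ENSRNOG00000002812, chosen in the same way, measured 4.76 to 6.29 FPKM at 10 mpk, 2.618 to 4.002 FPKM with obese vehicle and 4.66 to 6.41 FPKM in lean cortex. Both had lean values that overlapped those at 10 mpk and lay above every obese vehicle value.

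At the other end, ENSRNOG00000001806 and ENSRNOG00000059640, also chosen after their values were seen, had lean means below every obese library. The first measured 45.0, 56.6, 58.1, 60.0 and 63.6 FPKM at 10 mpk, 22.7, 26.3, 26.4, 28.2 and 33.4 FPKM with obese vehicle and 13.5, 13.7, 15.3, 17.5 and 18.1 FPKM in lean cortex. The second measured 3.92 to 5.52 FPKM at 10 mpk, 2.59 to 3.71 FPKM with obese vehicle and 0.955 to 1.82 FPKM in lean cortex. For both, lean, vehicle and high dose formed 3 groups of values that did not overlap, with the high dose farthest from lean.

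Medulla libraries took no part in choosing the IDs, and 70 of the 78 reached 1 FPKM in at least 5 of the 25 medulla libraries and were tested there; the other 8, ENSRNOG00000019404 among them, were not. At 10 mpk against obese vehicle, 35 of 70 were higher in medulla, beside 1.6% of all 14195 genes tested, and 0 were lower, beside 16.5% (limma, Benjamini-Hochberg adjusted over all genes tested, threshold 0.05). At an unadjusted p under 0.05, 43 members were higher and 2 lower, beside 2.99% and 33.1% of all genes. The median log2 difference was 0.46 for the 70 members and -0.18 over all genes, 62 of 70 members had a positive difference, and the 35 called ranged from 0.26 to 1.55. The filter was passed only through the 10 mpk libraries by 2 members, neither of them called, and 35 of the other 68 were called. Of the 35, 21 were called whichever single library was left out. How many of all genes kept their call in this way was not computed, here or in the comparisons below. After median-ratio rescaling, 42 of 68 members were higher, beside 3.19% of 14126 genes, and 0 were lower, beside 2.08%; over all genes the calls went to 451 higher and 294 lower, against 227 and 2345 on the deposited scale, and the median of all genes was -0.01.

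**Figure D3:**
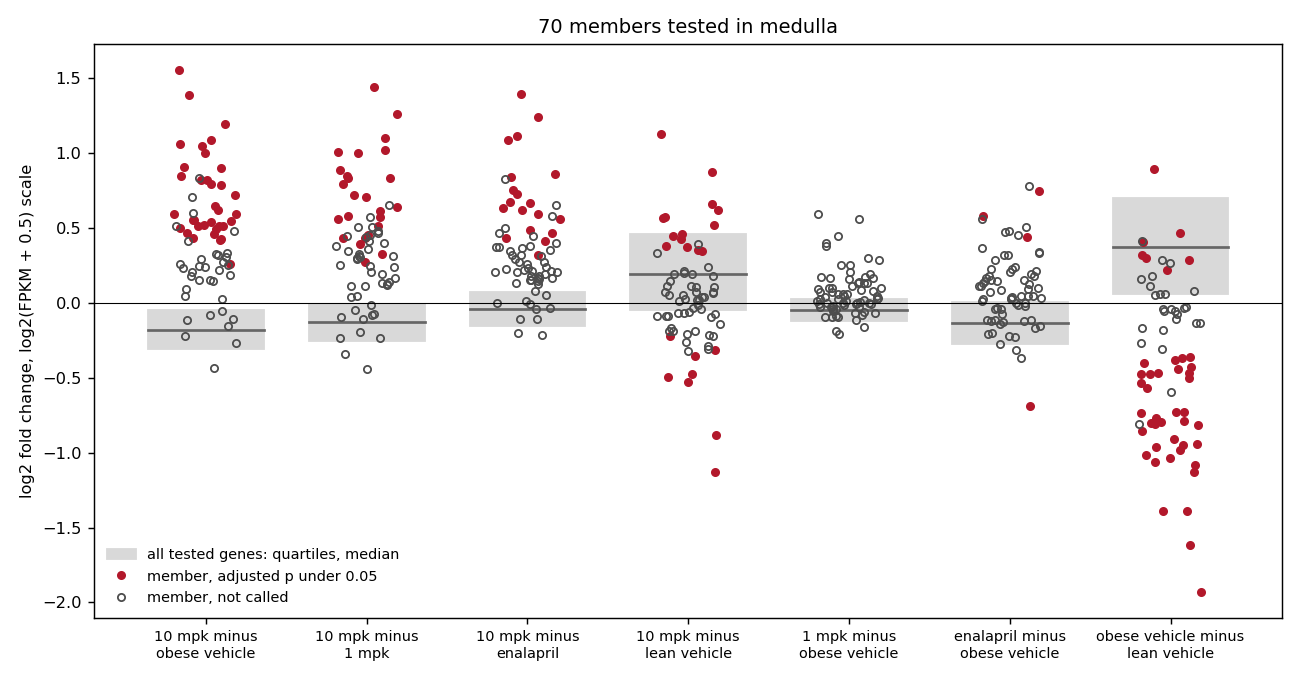
Log2 fold changes in medulla on the log2(FPKM + 0.5) scale for 7 comparisons, first named group minus second. Circles are the 70 IDs tested (filled where the adjusted p was under 0.05), and the grey box and line give the quartiles and median of all 14195 genes. In the comparisons of 10 mpk with obese vehicle, 1 mpk and enalapril most circles lie above the box, and in obese vehicle minus lean many lie below it.

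ENSRNOG00000020951 was also the largest rise in medulla. It measured 53.3, 69.4, 72.4, 75.02 and 75.6 FPKM at 10 mpk, against 16.01, 19.4, 24.4, 29.3 and 29.4 FPKM with obese vehicle. All 5 libraries at 10 mpk were above all 5 with vehicle, and the log2 difference was 1.55 ± 0.152 (SE; limma adjusted p = 3.84e-06). ENSRNOG00000055586 came next, with 22.7, 32.0, 35.0, 35.7 and 36.1 FPKM at 10 mpk, against 10.6, 11.4, 11.6, 11.8 and 14.3 FPKM with obese vehicle, again without overlap, and a log2 difference of 1.39 ± 0.156 (SE; limma adjusted p = 9.42e-06). In cortex the same ID measured 11.4, 12.9, 14.0, 15.9 and 16.6 FPKM at 10 mpk, against 6.37, 6.50, 6.85, 8.88 and 9.70 FPKM with obese vehicle.

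ENSRNOG00000022483, chosen after its values were seen, combined a large cortex ratio with a call in medulla. In cortex it measured 1.85, 2.38, 3.57, 5.22 and 5.39 FPKM at 10 mpk, against 0.177, 0.267, 0.319, 0.461 and 0.570 FPKM with obese vehicle. In medulla it measured 1.21, 1.37, 1.90, 2.85 and 2.93 FPKM at 10 mpk, against 0.283, 0.464, 0.516, 0.718 and 1.01 FPKM with obese vehicle (log2 difference 1.19 ± 0.197 SE, limma adjusted p = 0.000826). The groups did not overlap in either tissue.

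The 2 most abundant IDs differed in medulla. ENSRNOG00000013768 measured 151, 178, 191, 193 and 236 FPKM at 10 mpk, against 114, 120.2, 130.2, 136 and 149 FPKM with obese vehicle, without overlap (log2 difference 0.54 ± 0.126 SE, limma adjusted p = 0.00728). ENSRNOG00000032857 measured 13.5, 24.6, 48.0, 141 and 231 FPKM at 10 mpk, against 23.3, 27.9, 33.2, 35.1 and 38.4 FPKM with obese vehicle, and the groups overlapped (log2 difference 0.83 ± 0.614 SE, limma adjusted p = 0.333). The spread of the second ID among the 5 medulla libraries at 10 mpk was wider than the whole vehicle range.

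**Figure D4:**
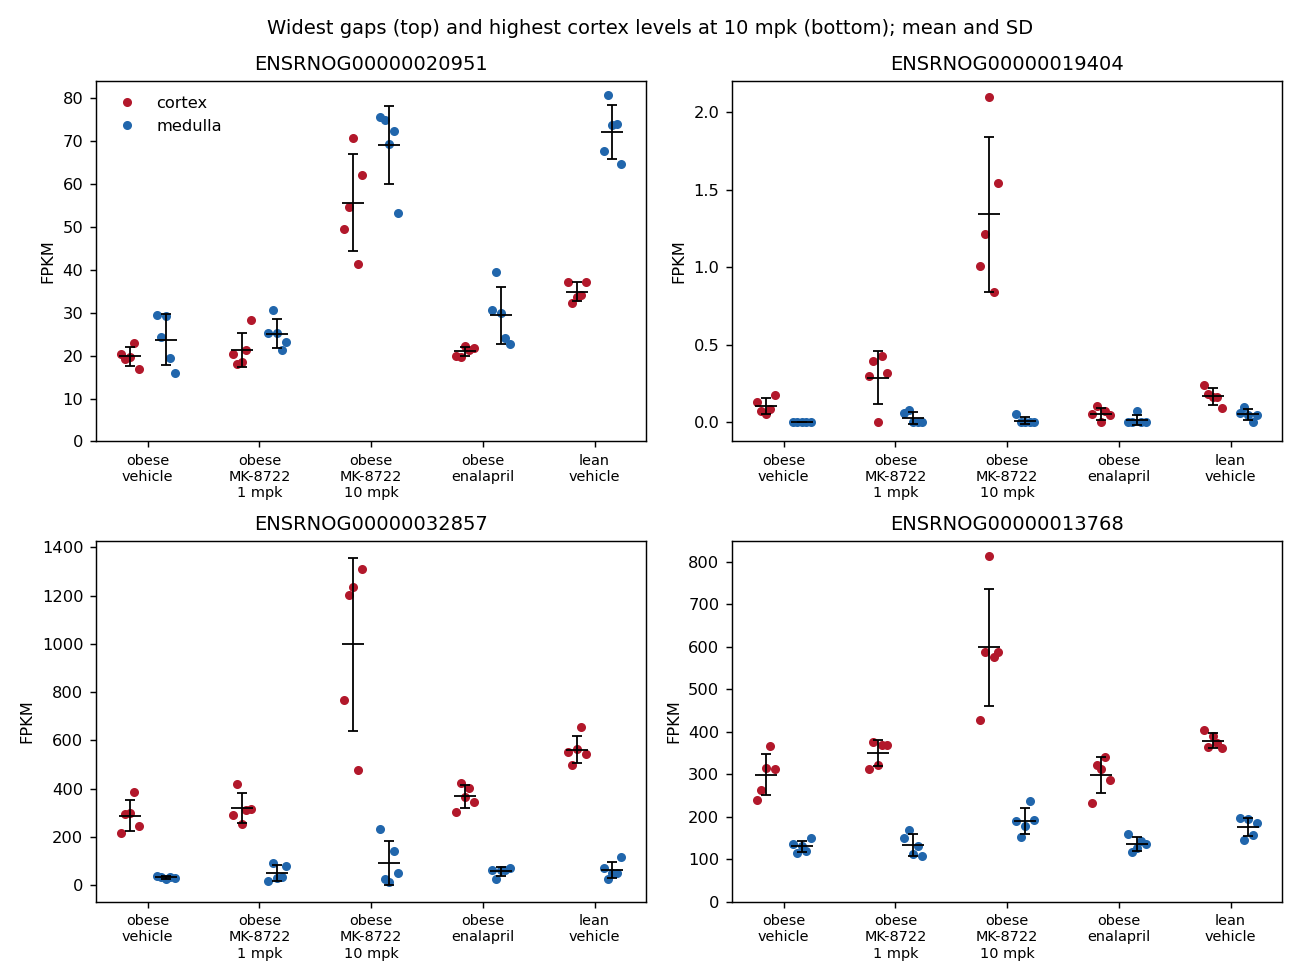
FPKM of 4 IDs by group in cortex and medulla, with a point for each library and the mean and SD of 5 libraries. The top row holds the IDs with the widest cortex gap, and the bottom row those with the highest cortex level at 10 mpk. ENSRNOG00000020951 is high at 10 mpk and in lean rats in medulla, ENSRNOG00000019404 is near 0 in all medulla groups, and ENSRNOG00000032857 spreads widely in medulla at 10 mpk.

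The separation that defined the set in cortex was also looked for in medulla. Of 66 members with a mean of at least 1 FPKM at 10 mpk in medulla, 10 had all 5 libraries at 10 mpk above all 15 other obese medulla libraries, beside 0.21% of 13317 IDs. That minimum uses the group that is high; with a mean of at least 1 FPKM over the 15 other obese libraries in its place, chosen after the data had been seen, 9 of 61 members were separated, beside 0.177% of 13584 IDs. Against obese vehicle alone, 21 of 70 had all 5 values at 10 mpk above all 5 vehicle values, beside 0.845% of the 14195 genes, and 1 of 70 had them below, beside 8.13%. That 1 was ENSRNOG00000000708, named after its values were seen, with 0.690, 0.748, 0.756, 0.876 and 0.892 FPKM at 10 mpk, against 0.950, 1.04, 1.04, 1.08 and 1.17 FPKM with obese vehicle; its log2 difference of -0.27 ± 0.139 (SE) was not called (limma adjusted p = 0.162).

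Against the lower dose in medulla, 25 of 70 members were higher at 10 mpk, beside 1.02% of all genes, and 0 were lower, beside 4.9% (limma, adjusted over all genes). At an unadjusted p under 0.05, 42 were higher and 4 lower, beside 3.43% and 21.8% of all genes. The median log2 difference was 0.37 for members and -0.13 over all genes. Of the 25, 12 were called whichever single library was left out. Leaving out 1 library gave 12 or 16 calls without replicate 5 or 1 at 10 mpk, beside 0.395% and 0.522% of all genes. It gave 16, 14 or 15 without replicate 4, 6 or 7 at 1 mpk, beside 0.551%, 0.368% and 0.508%. With the replicate number as a block 11 of 70 were called, beside 0.282% of all genes, and with the 2 groups fitted alone 11 of 68, beside 0.274%. After rescaling, 32 of 68 were higher, beside 1.76% of genes, and 0 were lower, beside 1.13%. ENSRNOG00000020951 had 21.3, 23.2, 25.3, 25.4 and 30.6 FPKM at 1 mpk, all below its 5 values at 10 mpk (log2 difference 1.44 ± 0.152 SE, limma adjusted p = 8.55e-06). ENSRNOG00000055586 had 9.31, 11.6, 12.9, 14.9 and 18.04 FPKM at 1 mpk, likewise below all 5 (log2 difference 1.26 ± 0.156 SE, limma adjusted p = 6.84e-05).

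Between 1 mpk and obese vehicle in medulla, 0 of 70 members were called in either direction, beside 0.0% of all genes (limma). At an unadjusted p under 0.05, 2 of 70 members were higher and 0 lower. Of the 14195 genes 577 passed, 94 (0.662%) of them higher and 483 (3.4%) lower. Members had a median log2 difference of 0.03, and all genes one of -0.05. A difference between the low dose and vehicle was thus not detected for any of these IDs with 5 libraries a group.

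Against enalapril in medulla, 19 of 70 members were higher at 10 mpk, beside 0.817% of all genes, and 0 were lower, beside 1.92% (limma, adjusted over all genes). At an unadjusted p under 0.05, 29 were higher and 1 lower, beside 4.25% and 10.8% of all genes. The median log2 difference was 0.30 for members and -0.05 over all genes. Of the 19, 12 were called whichever single library was left out. Without replicate 3 at 10 mpk 12 were called, beside 0.339% of all genes, and with the 2 groups fitted alone 7 of 65, beside 0.127%. ENSRNOG00000005985, which passed the filter only through the 10 mpk libraries, was among the 19, and 18 of the other 68 were called. After rescaling, 19 of 68 were higher, beside 1.27%, and 0 were lower, beside 0.729%. ENSRNOG00000055586 had 10.1, 10.9, 12.2, 12.4 and 14.0 FPKM with enalapril, all below its values at 10 mpk (log2 difference 1.39 ± 0.156 SE, limma adjusted p = 1.58e-05). ENSRNOG00000020951 had 22.8, 24.1, 29.9, 30.6 and 39.4 FPKM with enalapril, also below all 5 (log2 difference 1.24 ± 0.152 SE, limma adjusted p = 4.94e-05).

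Few of the IDs were called between enalapril and obese vehicle in medulla. Against obese vehicle, 3 of 70 were higher with enalapril, beside 1.57% of all genes, and 1 was lower, beside 9.06% (limma, adjusted over all genes). At an unadjusted p under 0.05, 12 were higher and 3 lower, beside 5.39% and 25.8% of all genes. Members had a median log2 difference of 0.08, and all genes one of -0.14. After rescaling, 4 of 68 were higher, beside 2.32%, and 1 was lower, beside 1.73%. ENSRNOG00000060988 measured 0.791, 1.28, 1.70, 1.70 and 1.72 FPKM with enalapril, against 0.374, 0.461, 0.672, 0.687 and 1.09 FPKM with obese vehicle (log2 difference 0.75, limma adjusted p = 0.0290). ENSRNOG00000037695 measured 7.54, 7.80, 8.37, 10.2 and 10.8 FPKM with enalapril, against 3.72, 5.39, 6.0, 6.19 and 8.42 FPKM with obese vehicle (log2 difference 0.58, limma adjusted p = 0.0389). For both IDs the groups overlapped, and neither call held whichever library was left out. The count of 3 became 0 without enalapril replicate 2, 5 or 7, beside 0.678%, 0.0212% and 0.529% of all genes. It also became 0 without vehicle replicate 4, 6 or 7, beside 0.360%, 0.303% and 0.00707%. Without vehicle replicate 5 it became 7, beside 2.71%, and with the 2 groups fitted alone it was 0 of 62, beside 0.812%.

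The 1 ID that was lower with enalapril was ENSRNOG00000046005. It measured 19.3, 21.9, 26.8, 27.1 and 28.2 FPKM with enalapril, against 35.4, 37.3, 37.9, 41.5 and 47.3 FPKM with obese vehicle in medulla, with no overlap (log2 difference -0.69 ± 0.0910 SE, limma adjusted p = 0.000962). It remained called whichever library was left out. In cortex, where no test is given, it measured 13.3, 14.5, 15.8, 16.9 and 18.7 FPKM with enalapril, against 22.3, 22.3, 26.1, 28.9 and 30.9 FPKM with obese vehicle, also with no overlap. At 10 mpk it reached 37.7, 40.3, 46.9, 48.8 and 84.1 FPKM in cortex and 41.2, 42.1, 42.7, 47.1 and 47.8 FPKM in medulla, where its difference from vehicle was not called (log2 difference 0.15 ± 0.0910 SE, limma adjusted p = 0.234).

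Most of the IDs called between obese and lean vehicle rats in medulla were lower in the obese ones. Of 70 members, 37 were lower with obese vehicle compared with lean vehicle, beside 10.9% of all genes, and 7 were higher, beside 56.8% (limma, adjusted over all genes). The median log2 difference was -0.42 for members and 0.37 over all genes. After median-ratio rescaling, 51 of 68 members were lower and 1 was higher, beside 27.9% and 26.0% of 14126 genes, and the median of all genes was -0.01. Among the 7 was ENSRNOG00000005985, which passed the filter only through the 10 mpk libraries, and 6 of the other 68 were called. Of the 37, 33 were called whichever single library was left out, and 23 were called in every alternative run. Neither count was made for all genes. With relative depth as a term, 25 of 70 were lower, beside 5.81% of all genes, and 3 were higher, beside 32.6%.

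ENSRNOG00000029698 fell furthest in obese vehicle medulla. It measured 11.9, 16.2, 17.2, 22.4 and 29.8 FPKM with obese vehicle, against 56.6, 68.1, 71.9, 83.3 and 84.7 FPKM with lean vehicle (log2 difference -1.93 ± 0.206 SE, limma adjusted p = 3.07e-08). ENSRNOG00000020951 came next, with the obese vehicle values given above, against 64.6, 67.7, 73.8, 74.1 and 80.8 FPKM with lean vehicle (log2 difference -1.62 ± 0.152 SE, limma adjusted p = 2.96e-09). Neither ID had any overlap between obese and lean vehicle.

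Among the 7 that were higher in obese vehicle, ENSRNOG00000059640 measured 0.778, 1.40, 2.10, 2.15 and 2.46 FPKM with obese vehicle, against 0.477, 0.645, 0.669, 0.734 and 0.879 FPKM with lean vehicle (log2 difference 0.89 ± 0.201 SE, limma adjusted p = 0.000433), and its lowest obese value lay within the lean range. ENSRNOG00000003031 measured 4.24, 5.27, 5.67, 6.14 and 6.37 FPKM with obese vehicle, against 3.17, 3.51, 3.51, 4.55 and 4.67 FPKM with lean vehicle, with overlap (log2 difference 0.46 ± 0.166 SE, limma adjusted p = 0.0167). After rescaling this ID was not called, with a log2 difference of 0.09 and a limma adjusted p of 0.675.

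The high dose against lean vehicle gave calls in both directions in medulla. Of 70 members, 14 were higher at 10 mpk, beside 36.6% of all genes, and 8 were lower, beside 11.1% (limma, adjusted over all genes). The 14 included ENSRNOG00000005985, which passed the filter only through the 10 mpk libraries, and without the 2 such members 13 of 68 were higher. After median-ratio rescaling 7 of 68 were higher and 17 lower, beside 20.9% and 22.7%, and the members' median changed sign to -0.18. On the deposited scale the median log2 difference was 0.03 for members, close to 0 and of no stable sign, and 0.19 over all genes. This comparison shares libraries with those against obese vehicle, so the values of single IDs are given side by side and no relation between the comparisons is tested.

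ENSRNOG00000017601 was above lean at the high dose. It measured 4.43, 4.57, 4.84, 5.76 and 6.08 FPKM at 10 mpk, against 2.35, 2.52, 2.58, 2.58 and 2.82 FPKM with lean vehicle (log2 difference 0.87 ± 0.115 SE, limma adjusted p = 1.42e-06), while obese vehicle held 3.32 to 4.13 FPKM, between them without overlap. ENSRNOG00000059640 was also above lean, with 1.47 to 2.90 FPKM at 10 mpk against 0.477 to 0.879 FPKM with lean vehicle (log2 difference 1.13, limma adjusted p = 6.65e-05).

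ENSRNOG00000029698 stayed below lean at the high dose, with 25.04, 28.6, 29.9, 34.7 and 49.7 FPKM at 10 mpk, against the lean values given above (log2 difference -1.13 ± 0.206 SE, limma adjusted p = 9.31e-05). ENSRNOG00000015774 measured 0.697, 1.09, 1.18, 1.77 and 2.12 FPKM at 10 mpk, against 2.42, 2.49, 2.60, 3.29 and 3.47 FPKM with lean vehicle (log2 difference -0.88 ± 0.255 SE, limma adjusted p = 0.00629). For ENSRNOG00000020951 the values at 10 mpk and in lean medulla overlapped (log2 difference -0.07 ± 0.152 SE, limma adjusted p = 0.733).

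**Figure D5:**
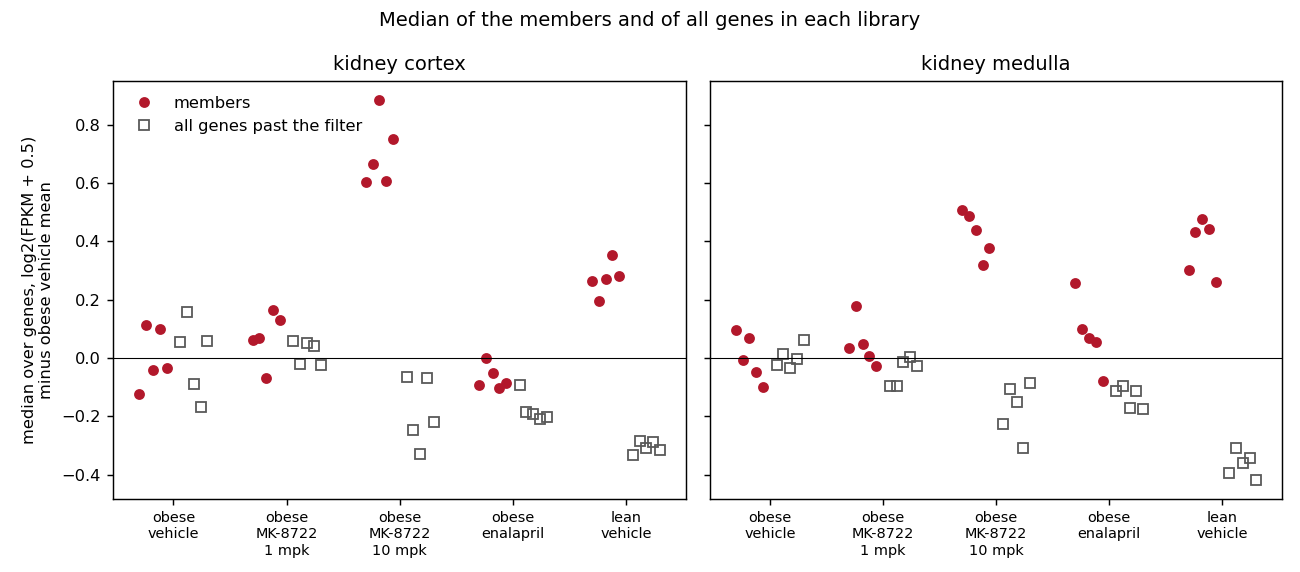
Median over the IDs of log2(FPKM + 0.5) minus the obese vehicle mean in each library, for the IDs past the filter (circles, 75 in cortex and 70 in medulla) and for all genes past the filter (squares). Circles at 10 mpk lie between 0.60 and 0.88 in cortex, where they were chosen to be high, and between 0.32 and 0.51 in medulla. Squares at 10 mpk are below 0 in every library of both tissues.

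Library by library, the medians of the IDs varied within each group. In medulla they were 0.32, 0.38, 0.44, 0.49 and 0.51 at 10 mpk, -0.03, 0.01, 0.04, 0.05 and 0.18 at 1 mpk, -0.08, 0.06, 0.07, 0.10 and 0.26 with enalapril and 0.26, 0.30, 0.43, 0.44 and 0.48 in lean rats, each relative to the mean of obese vehicle. The 5 libraries at 10 mpk lay above all 1 mpk and enalapril libraries and overlapped the lean ones. In lean cortex the medians were 0.20, 0.26, 0.27, 0.28 and 0.35, below the 0.60 to 0.88 of the high dose there. All medulla libraries were in the lower range of library numbers. Relative depth in medulla averaged 0.842 ± 0.125 at 10 mpk, 0.705 ± 0.0786 with obese vehicle and 1.09 ± 0.0750 in lean rats (SD, n = 5 each). With relative depth as a term, 22 of 70 members were called higher at 10 mpk than with obese vehicle, beside 0.916% of all genes, and with those 2 groups fitted alone 19 of 64 were, beside 0.524%.

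The IDs called in medulla fell into 4 of the 5 classes set by lean cortex. At 10 mpk against obese vehicle in medulla, 18 of 25 tested IDs were called higher in the class whose lean cortex mean was above every other obese library and below the high dose. In the class within the range of those libraries and above their mean, 11 of 29 were called, and in the class at or below their mean 3 of 8 were. In the class that reached the high dose 3 of 4 were called, and in the class below every other obese library 0 of 4 were. The median log2 differences of these classes were 0.59, 0.33, 0.35, 0.50 and 0.22 in that order. Over all 14195 genes tested, 1.6% were called higher, and shares of all genes within each class were not computed. The classes were set with obese cortex libraries that took part in choosing the IDs. Differences between classes were not tested.

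In lean rats, some IDs were higher in cortex and others in medulla. All 5 lean cortex values were above all 5 lean medulla values for 33 of the 78 IDs and below them for 32, and 13 overlapped. Of the 70 that passed the filter, 27 were above and 32 below, beside 10.6% and 24.2% of 13373 genes tested in both tissues. At 10 mpk against obese vehicle in medulla, 19 of 32 IDs that were higher in lean medulla were called higher. So were 10 of 27 that were higher in lean cortex and 6 of 11 that overlapped, beside 1.6% of all 14195 genes. Shares of all genes within these 3 classes were not computed, and a difference between the members' shares was not tested.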

How the data were processed

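The authors deposited FPKM values for 32545 Ensembl gene IDs in 50 libraries, per the file headers. Aligner, counting tool and genome build: not given in the sources used here. Columns were matched to samples by the library number in the sample description. Of the IDs, 0 matched a symbol in the reference gene table, so gene lists, marker lists and sequences could not be used, and at most 2 IDs per direction and comparison were named: those with the widest cortex gap, the highest cortex mean and the largest called log2 changes in medulla. Other IDs are said to be chosen after their values were seen. The 78 members and the lists were chosen with earlier results of these data known.

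FPKM are not counts, so tests used limma 3.58.1 (trend, robust) in R 4.3.3 on log2(FPKM + 0.5), a scale that understates changes of low genes. All 25 medulla libraries were fitted with a mean per group, over genes that reached 1 FPKM in at least 5 of them. Two-sided p-values were Benjamini-Hochberg adjusted over all 14195 genes, with calls under 0.05.

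Absolute depth is unknown. Relative depth, 0.581 to 1.48, came from the most frequent ratio of low values between each pair of libraries. It used 4575 genes present in 5 to 22 libraries and below 1 FPKM in all. With these depths, 93.1% of 52522 values lay within 0.1 reads of a whole multiple of 1 read's value. Each gene's lowest values set its unit and higher multiples were left out, so this share is no independent check of the depths. Depth limits the precision of low IDs. Besides median-ratio rescaling, alternatives were a pseudocount of 0.1, no filter, relative depth as a term, a replicate block, a fit of only the 2 compared groups, and each library left out. On simulated data for 10 mpk against obese vehicle in medulla (14195 genes), the test recovered 46.3% of 67 genes changed by 0.5 on the log2 scale, 86.6% of 67 changed by 1 and 100% of 66 changed by 2. The simulation drew independent normal noise around the same mean in every group. Only these genes were changed, at 10 mpk and in either direction. In the data many more genes were called and the median of all genes was below 0, so these shares may not carry over.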

Additional observations from a re-analysis of the deposited data

Results flagged for a closer look

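Of 150 groups of 5 libraries checked for 15 IDs, 9 held a library far from the other 4, by the gap to its neighbour divided by the range (Dixon's critical value 0.71); chance alone gives about 1 in 20. In medulla at 10 mpk, ENSRNOG00000020951 was lowest in replicate 6 at 53.3 FPKM, and ENSRNOG00000019404 was highest in replicate 1 at 0.0546 FPKM with the other libraries listed at 0. In medulla with enalapril, ENSRNOG00000019404 was highest in replicate 5 at 0.0709 FPKM, ENSRNOG00000032857 lowest in replicate 3 at 24.9 FPKM and ENSRNOG00000029698 highest in replicate 2 at 39.3 FPKM. ENSRNOG00000029698 was also lowest in replicate 2 at 1 mpk in medulla, at 12.7 FPKM. In cortex, ENSRNOG00000037695 was highest in replicate 5 at 10 mpk, at 12.7 FPKM, and in replicate 2 at 1 mpk, at 7.14 FPKM. ENSRNOG00000046005 was highest in the same replicate 5 at 10 mpk in cortex, at 84.1 FPKM.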

How the results depend on the processing

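No called change of a named ID turned its direction under the alternatives run. The members' median for 10 mpk against lean, 0.03, did: it was -0.18 after rescaling, -0.01 with the replicate block, and -0.03 to -0.01 without 10 mpk replicate 1 or 2 or lean replicate 1 or 7, as did that for 1 mpk against obese vehicle, 0.03, at -0.01 without 1 mpk replicate 2; the calls for 10 mpk against lean were 7 higher and 17 lower after rescaling, against 14 and 8. Counts of members called that moved by more than 1.5 times were these, with the cause not tested. At 10 mpk against obese vehicle, 22 were called higher with relative depth as a term and 19 with the 2 groups alone, against 35. Beside these stood 0.916% and 0.524% of all genes, against 1.6%. At 10 mpk against 1 mpk, 11 were called higher with the replicate block and 11 with the 2 groups alone, against 25. Here 0.282% and 0.274% of all genes were called higher, against 1.02%. At 10 mpk against enalapril, 7 were called higher with the 2 groups alone, against 19, beside 0.127% of all genes, against 0.817%. For enalapril against obese vehicle, 1 was called higher with no filter and 0 with the 2 groups alone, against 3. Of all genes, 0.355% and 0.812% were called higher, against 1.57%. For obese vehicle against lean, 1 was called higher after rescaling and 3 with relative depth, against 7. Over all genes the shares called higher were 26.0% and 32.6%, against 56.8%. For 10 mpk against lean, 7 were called higher after rescaling and 6 with relative depth, against 14, and 17 and 3 were called lower, against 8. The selection was met by 158 IDs after rescaling and by 196 within the lower number range, where fewer libraries had to separate, against 78.

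With 1 library left out, members called higher ranged from 24 to 36 for 10 mpk against obese vehicle, 12 to 28 against 1 mpk, 12 to 20 against enalapril and 10 to 14 against lean. All genes called higher ranged from 0.848% to 1.78%, 0.368% to 1.41%, 0.339% to 1.33% and 30.7% to 39.9% in that order. Members called lower ranged from 0 to 1, 0 to 0, 0 to 0 and 6 to 8 in the same order. All genes called lower then ranged from 6.42% to 21.2%, 0.663% to 9.85%, 0.607% to 3.32% and 9.77% to 11.7%. The 1 lower against obese vehicle was ENSRNOG00000003031, without vehicle replicate 3 or 10 mpk replicate 1, 2 or 6. For enalapril against obese vehicle, members called higher ranged from 0 to 7, beside 0.00707% to 3.42% of all genes. The 0 came without enalapril replicate 2, 5 or 7 or vehicle replicate 4, 6 or 7, and the 7 without vehicle replicate 5. Members called lower ranged from 1 to 2 (2 without vehicle replicate 5), beside 0.0424% to 13.1%. For obese vehicle against lean the ranges were 5 to 8 higher, beside 53.7% to 56.3%, and 34 to 37 lower, beside 9.80% to 10.9%. For 1 mpk against obese vehicle they were 0 to 0. From 78 to 109 IDs met the selection, 109 without 10 mpk cortex replicate 6. With fewer libraries to separate the selection is easier to meet, so the lower end is no measure of stability.

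Same-numbered medulla libraries of different groups were compared, with 3 or 4 pairs per comparison. Correlations of their deviations ran from -0.223 to 0.161 across genes, and no comparison had every pair over 0.1. Few pairs were available, so this does not settle what the numbers mean, and cortex libraries were not paired with medulla libraries. With the replicate number as a block, 24, 11, 16, 0, 2, 6 and 11 members were called higher and 0, 0, 0, 0, 1, 38 and 8 lower, in the order 10 mpk against obese vehicle, 1 mpk and enalapril, 1 mpk against obese vehicle, enalapril against obese vehicle, obese vehicle against lean, and 10 mpk against lean. All genes called higher were then 0.951%, 0.282%, 0.712%, 0.0%, 0.571%, 53.2% and 33.7%, and lower 7.21%, 0.458%, 1.08%, 0.0%, 5.30%, 10.2% and 10.3%, in that order. Of the named IDs, 3 missed the threshold in some settings. ENSRNOG00000060988 had a limma adjusted p of 0.0549 for enalapril with the 2 groups alone and 0.0541 to 0.108 without 1 of 6 libraries. ENSRNOG00000037695 had 0.0563 to 0.0665 in 3 settings and 0.0550 to 0.145 without 1 of 7 libraries. ENSRNOG00000003031 had 0.675 for obese vehicle against lean after rescaling. Depth limits the IDs near 1 FPKM or below, where 1 read is a large step.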
